A study of Mus musculus with 12 samples.

Results

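The genes described here are 10 cytokine genes of T cells, namely Il2, Il4, Il10, Il13, Il15, Il21, Tnf, Lta, Ltb and Csf2. They were found by gene symbol among the 38924 Ensembl gene IDs counted in 12 RNA-sequencing libraries, and all 10 passed the filter on low counts. CD4+ T cells came from the spleens of C57BL/6 mice that were either wild type (WT) or STINGgt/gt (STING KO in the labels), the goldenticket line, in which a missense mutation leaves the DNA-sensing adaptor STING without function in every cell of the animal. Naive cells were sorted, expanded with antibodies against CD3 and CD28, rested without antibodies and then cultured for 16 h with the solvent DMSO or with 10-carboxymethyl-9-acridanone (CMA), a cell-permeable agonist of mouse STING. The 4 groups, WT with DMSO, WT with CMA, STINGgt/gt with DMSO and STINGgt/gt with CMA, held 3 libraries each. The methods give an age of 8 to 12 weeks for the mice and a single, unnamed sex. A figure legend of the paper counts 3 biological replicates for this sequencing of CD4+ T cells with CMA and DMSO. Neither the legend nor the labels say whether the libraries of a group came from separate mice, so p-values measure only the spread between these libraries.

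Cytokines are the secreted or membrane-bound proteins through which T cells instruct other cells and themselves. Many of their genes, though not all, are largely silent in resting T cells. These are switched on after antigen receptor stimulation by NFAT, AP-1 and NF-κB factors. Many of the mRNAs are short-lived and are removed by decay proteins that bind the end of the transcript. IL-2, IL-4, IL-15 and IL-21 signal through receptors that share the common γ chain and drive growth, survival and help for B cells. IL-4 and IL-13 are the type 2 cytokines, IL-10 restrains inflammation, and GM-CSF, the product of Csf2, acts on myeloid cells. TNF, lymphotoxin α (Lta) and lymphotoxin β (Ltb) belong to the TNF family and bind receptors that signal to NF-κB and cell death.

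Many of these genes lie next to each other in the GRCm38 genome, all protein coding. Il2 (ENSMUSG00000027720) lies on chromosome 3 from 37120523 to 37125959 and Il21 (ENSMUSG00000027718) on the same chromosome from 37222759 to 37232618. Il4 (ENSMUSG00000000869, 53602982 to 53618669), Il13 (ENSMUSG00000020383, 53631324 to 53634702) and Csf2 (ENSMUSG00000018916, 54247271 to 54249667) lie on chromosome 11, with 12655 bases between Il4 and Il13. Ltb (ENSMUSG00000024399, 35194439 to 35196320), Tnf (ENSMUSG00000024401, 35199381 to 35202007) and Lta (ENSMUSG00000024402, 35203165 to 35205351) form a cluster on chromosome 17. Il10 (ENSMUSG00000016529) lies on chromosome 1 from 131019845 to 131024974 and Il15 (ENSMUSG00000031712) on chromosome 8 from 82331637 to 82403222. Il2 overlaps Adad1 on the opposite strand, and Il21 and Csf2 overlap antisense genes. On the same strand, Lta overlaps the microRNA gene Mir6974 and Ltb overlaps Mir6973a, which the strand of a read cannot separate. The library kit keeps the strand, but the strand setting of the counting is not given in the sources used here. Reads of genes that overlap on opposite strands may therefore not be separated either. Adad1 itself had at most 15 reads in a library.

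RefSeq (GRCm38.p6) promoter entries were found for 8 of the 10 genes, and the 250 bases before the start are shown for 4 genes whose transcripts followed 4 different patterns across the groups. The capitals mark GGAAA or its complement TTTCC, the core of NFAT sites, and TATAAA or its complement. Il2 (chr3:37125955-37126204, minus strand) rose with CMA in both genotypes, Il21 (chr3:37232637-37232886, minus strand) differed mainly by genotype, Il13 (chr11:53634703-53634952, minus strand) was higher in WT and rose there with CMA, and Tnf (chr17:35202008-35202257, minus strand) was lower in WT.
Il2: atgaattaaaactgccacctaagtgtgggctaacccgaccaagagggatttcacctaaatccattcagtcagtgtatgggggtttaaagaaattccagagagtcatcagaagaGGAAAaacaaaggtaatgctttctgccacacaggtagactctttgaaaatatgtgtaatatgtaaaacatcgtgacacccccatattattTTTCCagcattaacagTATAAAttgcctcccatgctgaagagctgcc
Il21: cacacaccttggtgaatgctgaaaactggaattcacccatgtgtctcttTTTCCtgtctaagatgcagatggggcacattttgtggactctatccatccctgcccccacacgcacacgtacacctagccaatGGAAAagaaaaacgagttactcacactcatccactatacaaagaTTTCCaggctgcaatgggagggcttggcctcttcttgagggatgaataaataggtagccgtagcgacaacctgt
Il13: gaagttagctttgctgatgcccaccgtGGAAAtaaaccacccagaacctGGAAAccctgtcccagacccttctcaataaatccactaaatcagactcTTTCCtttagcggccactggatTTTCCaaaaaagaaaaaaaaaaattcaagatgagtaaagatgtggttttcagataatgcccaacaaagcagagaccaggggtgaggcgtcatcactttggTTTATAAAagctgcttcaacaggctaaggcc
Tnf: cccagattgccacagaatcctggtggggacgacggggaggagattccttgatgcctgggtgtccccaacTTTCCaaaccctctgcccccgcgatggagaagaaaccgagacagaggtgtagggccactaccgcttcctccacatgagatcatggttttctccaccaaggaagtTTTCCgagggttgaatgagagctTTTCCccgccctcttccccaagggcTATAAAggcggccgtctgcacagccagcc

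The entries gave 9 windows, since Il4 has 2 starts. GGAAA, on either strand, was in 8 of the 9 and not before the first Il4 start, and it is a short motif that 55.6% of all 32851 RefSeq promoters of this length also held. TATAAA was present in 4 windows (Il2, Il13, Tnf and Lta) and in 12.4% of all promoters, between 24 and 26 bases before the start in Il2, Il13 and Tnf. The AP-1 motif TGANTCA, held by 6.75% of all promoters, was in none of the 9 windows. The NF-κB consensus (7.25% of all promoters) matched once, in Ltb, and the IRF motif GAAANNGAAA (2.98%) matched once, before the second of the Il4 starts, both overlapping a GGAAA match. The RefSeq start lay upstream of the annotated gene start by 232 bases for Csf2, -68 for Ltb and -1331 for the first Il4 start. Negative values lie inside the gene. The matches in these windows therefore describe bases displaced from those before the annotated start. All matches are letters in a window and not measured binding.

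The libraries held 27414450 to 43784910 reads assigned to genes. Levels are given as CPM, the counts of a gene scaled to a common library size with edgeR's TMM method. Tmem173, the gene that encodes STING, stood between 168 and 190 CPM with DMSO in both genotypes, so that its mRNA, which a missense mutation need not alter, did not test the genotype labels. All 7 T-cell markers were expressed. They summed to 2572 to 2611 CPM in WT with DMSO, 2384 to 2394 in WT with CMA and 2675 to 2770 in STINGgt/gt. With CMA in WT, Cd3d, Cd3e (252 to 160 CPM) and Cd3g fell and Cd4 rose, and the part of this in the cytokine results was not tested. Markers of other cells, which the sort of naive T cells before culture should leave out, were present at lower levels. The 6 B-cell markers summed to 253 to 266 CPM in WT with DMSO, 350 to 378 in WT with CMA and 114 to 122 in STINGgt/gt, and all 6 were higher in WT with either treatment. In bulk RNA, a change in the number of cells of a type and a change in RNA per cell cannot be told apart. The paper reports that overnight CMA led to apoptosis of WT but not of STINGgt/gt T cells. The part of cell death in the levels of WT with CMA was not tested. The WT DMSO library of replicate 3 held the highest or lowest value of its group for 9 of the 10 cytokine genes (lowest for 7), against 77.1% of all genes tested (lowest for 40.1%), and the calls that change without it are named below.

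CMA raised 6 of the 10 cytokine genes in WT T cells, Il15, Il2, Il13, Il10, Tnf and Ltb, and lowered none (edgeR's quasi-likelihood test, Benjamini-Hochberg adjusted p under 0.05 over 13811 genes; 0 were lower at an unadjusted p under 0.05, or with DESeq2 or limma-voom). Among all genes tested, 33.0% were higher and 37.4% lower. The 10 genes were chosen with earlier results of these data known, so these shares do not test whether cytokine genes rose as a set. With a change of at least 2-fold required as well, Il15, Il2 and Il13 remained, against 9.32% of all genes higher. The median log2 fold change was 0.34 over the 10 genes and -0.04 over all genes. In STINGgt/gt T cells Il2 alone was called among the 10, against 0.398% of all genes higher and 0.920% lower, and its change was under 2-fold (0.0145% of all genes were higher by 2-fold). The 2 effects differed by test for 6 genes, all with the larger effect in WT, against 27.2% of all genes with a larger and 31.6% with a smaller value in WT. The difference was at least 2-fold for 3 of them, Il15, Il2 and Il13, against 8.70% of all genes. Il13 lay at this cut, a log2 value of 1. On leaving out single libraries its value ranged from 0.96 to 1.10 with CMA in WT and from 0.84 to 1.21 for the difference.

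**Figure D1:**
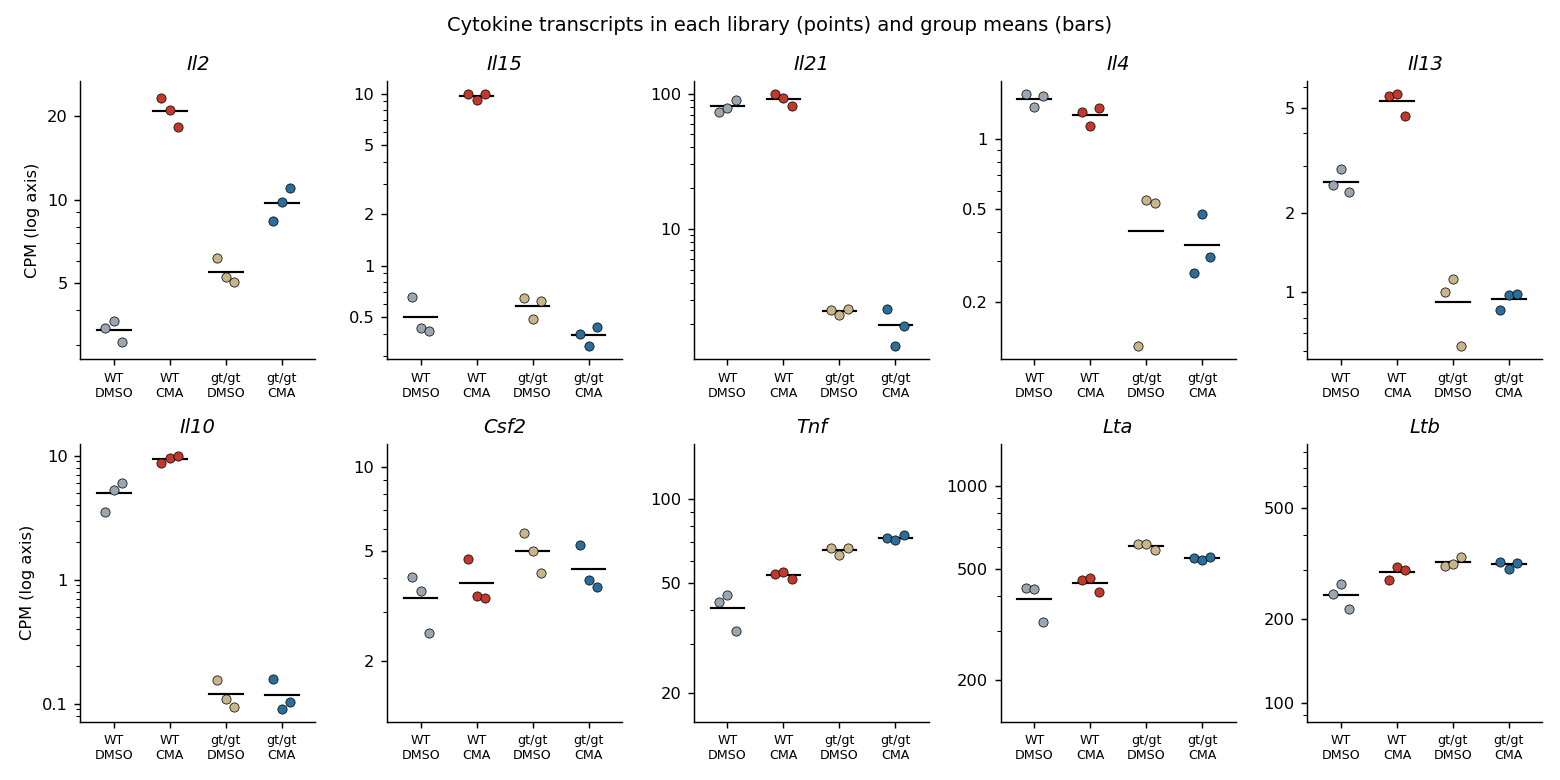
Level of each cytokine transcript (CPM, log axis, each panel with its own range) in the 12 libraries, grouped by genotype and treatment (gt/gt is STINGgt/gt). Points are libraries and bars are group means of 3. Il2 and Il15 are highest in WT with CMA, Il21 and Il10 separate the genotypes in both treatments, and Tnf, Lta and Ltb are lowest in WT with DMSO.

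Il15 encodes a cytokine that supports memory T cells and natural killer cells and is usually presented on the cell surface by the IL-15 receptor α chain. In WT T cells it stood at 0.655, 0.436 and 0.414 CPM with DMSO and at 9.99, 9.22 and 9.96 CPM with CMA. In STINGgt/gt T cells it stood at 0.644, 0.493 and 0.622 CPM with DMSO and at 0.399, 0.339 and 0.442 CPM with CMA. The 3 WT libraries with CMA thus lay far above the other 9, which spanned a narrow low range of 13 to 25 reads. The log2 fold change with CMA in WT was 4.30 (standard error 0.15, 19.7-fold, adjusted p = 2.06e-13, edgeR), the largest of the 10 genes. In STINGgt/gt it was -0.58 (95% confidence interval -1.08 to -0.08, adjusted p = 0.332, edgeR), and the effects differed by 4.88 (adjusted p = 8.03e-10, edgeR). With DMSO, WT and STINGgt/gt overlapped (log2 difference -0.26, adjusted p = 0.457, edgeR). The receptor chain Il15ra was lower in WT than in STINGgt/gt with DMSO by 0.91 on the log2 scale, with means of 32.7 and 61.2 CPM, and rose in WT to 72.8 CPM with CMA (log2 fold change 1.16, adjusted p = 1.53e-12, edgeR). In the same WT comparison the 4 dendritic-cell markers rose from a sum of 16.8 to 19.7 CPM to a sum of 69.1 to 75.9 CPM, with Zbtb46 (8.25 to 55.5 CPM) and Flt3 (9.69 to 16.6 CPM) called higher and Xcr1 and Siglech at 0 or 1 read in every library. The B-cell marker sum also rose, as given above. The part of such cells, which the sort should leave out, in the Il15 result was not tested.

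Il2 encodes the T-cell growth factor. With DMSO it was lower in WT (3.46, 3.66 and 3.07 CPM) than in STINGgt/gt (6.16, 5.25 and 5.07 CPM). With CMA it reached 23.3, 21.1 and 18.2 CPM in WT and 8.38, 9.79 and 11.0 CPM in STINGgt/gt. No group overlapped another, and the order from high to low was WT with CMA, STINGgt/gt with CMA, STINGgt/gt with DMSO and WT with DMSO. CMA raised Il2 by a log2 value of 2.63 in WT (standard error 0.12, 6.19-fold, adjusted p = 1.22e-11, edgeR) and by 0.82 in STINGgt/gt (standard error 0.12, 1.77-fold, adjusted p = 0.00243, edgeR). The effect was larger in WT by 1.81 (adjusted p = 2.20e-07, edgeR). The genotype difference accordingly changed sign, from -0.71 with DMSO (adjusted p = 0.000753) to 1.10 with CMA (adjusted p = 6.46e-08, both edgeR). Among the receptor chains for IL-2, Il2ra was 0.57 higher in WT with DMSO on the log2 scale (adjusted p = 2.86e-08), and the common γ chain Il2rg rose by 0.77 in WT with CMA (adjusted p = 2.07e-09, edgeR), from a mean of 262 to 446 CPM.

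Il21 encodes a cytokine of follicular and other helper T cells that promotes B-cell responses. It was abundant in WT, at 73.3, 78.9 and 90.4 CPM with DMSO and 99.9, 92.7 and 81.1 CPM with CMA. In STINGgt/gt it stood at 2.53, 2.30 and 2.55 CPM with DMSO and at 2.58, 1.36 and 1.92 CPM with CMA. The genotypes were far apart in both treatments, whereas the treatments overlapped within each genotype. WT exceeded STINGgt/gt by a log2 value of 5.04 with DMSO (standard error 0.14, 32.9-fold, adjusted p = 2.15e-13) and of 5.56 with CMA (47.3-fold, adjusted p = 3.33e-15, both edgeR). The CMA effect was 0.17 in WT (95% confidence interval -0.02 to 0.37, adjusted p = 0.108, edgeR). It was called without the WT DMSO library of replicate 3 (0.27, adjusted p = 0.00579), without the WT CMA library of replicate 3 (0.25, adjusted p = 0.0335) and with no filter on low counts (0.19, adjusted p = 0.00362, all edgeR). The difference of the CMA effect was 0.52 (adjusted p = 0.0648, edgeR), and it was called in 5 of 19 alternatives. Without the WT DMSO library of replicate 3 it was 0.63 (adjusted p = 0.0156), without the WT CMA library of replicate 3 0.60 (adjusted p = 0.0305), and on leaving out single libraries it ranged from 0.31, without the STINGgt/gt CMA library of replicate 2, to 0.78, without that of replicate 1 (adjusted p = 0.0108, all edgeR). The receptor gene Il21r was 0.54 higher in WT with DMSO and 1.03 higher with CMA on the log2 scale (adjusted p = 1.03e-12 with CMA, edgeR).

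With DMSO the genotypes differed at 9 of the 10 cytokine genes. Il10, Il21, Il4 and Il13 were higher in WT, against 22.9% of all genes tested, and Il2, Tnf, Lta, Csf2 and Ltb were lower, against 19.8% of all genes. With CMA 6 were higher in WT (37.0% of all genes), the same 4 with Il15 and Il2, and 2 were lower (36.5% of all genes), Tnf and Lta. The 4 genes higher in WT with DMSO differed by at least 2-fold (5.73% of all genes), whereas no difference towards STINGgt/gt reached 2-fold (1.56% of all genes with DMSO and 8.25% with CMA). The treatment comparison in WT and the genotype comparison with DMSO share the WT DMSO libraries, as the comparison with CMA shares the WT CMA libraries.

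**Figure D2:**
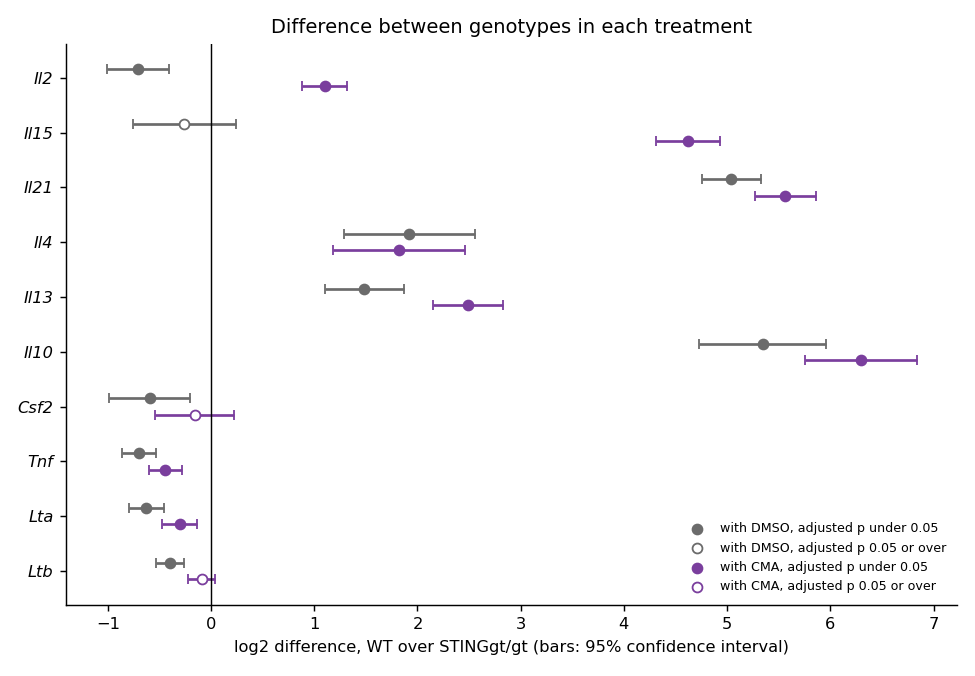
Log2 difference of WT over STINGgt/gt for each cytokine gene, with DMSO (grey) and with CMA (purple). Bars are 95% confidence intervals from edgeR and filled points had an adjusted p under 0.05. Il10 and Il21 differ by more than 5 on the log2 scale in both treatments, Tnf and Lta lie below 0 in both, and Il2 lies below 0 with DMSO and above 0 with CMA.

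Il10 encodes the anti-inflammatory cytokine made by regulatory and chronically stimulated T cells. It was counted with 96, 159 and 249 reads in WT with DMSO and with 312, 314 and 314 reads in WT with CMA. In STINGgt/gt it was close to the detection floor, with 6, 4 and 3 reads with DMSO and 6, 4 and 4 reads with CMA. In CPM the WT libraries stood at 3.50, 5.33 and 6.07 with DMSO and at 8.70, 9.69 and 9.90 with CMA, without overlap. CMA raised Il10 in WT by a log2 value of 0.90 (standard error 0.14, adjusted p = 2.35e-05, edgeR). From the pooled reads, WT held 42.4 times the level of STINGgt/gt with DMSO (95% interval 24.6 to 80.2) and 80.8 times with CMA (47.9 to 148), intervals that cover counting error only. The difference of the CMA effect, 0.95, had a 95% confidence interval of -0.49 to 2.39 and an adjusted p of 0.241 (edgeR). With limma on the deposited log2 table it was 1.05 and was called (adjusted p = 0.0179). The receptor chain Il10ra was at 132 and 134 CPM with DMSO in the 2 genotypes, and CMA raised it in WT to 299 CPM (log2 fold change 1.19, adjusted p = 2.00e-11, edgeR) while STINGgt/gt with CMA stood at 127 CPM.

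Il13 and its neighbour Il4 encode the type 2 cytokines. Il13 stood at 2.55, 2.92 and 2.39 CPM in WT with DMSO and rose to 5.55, 5.65 and 4.66 CPM with CMA. In STINGgt/gt it stood at 1.00, 1.12 and 0.622 CPM with DMSO and at 0.852, 0.973 and 0.987 CPM with CMA. The WT groups lay apart from each other and above both STINGgt/gt groups, which overlapped. CMA raised Il13 by a log2 value of 1.02 in WT (standard error 0.14, adjusted p = 5.70e-06), the value was 0.02 in STINGgt/gt (95% confidence interval -0.43 to 0.46), and the difference was 1.01 (adjusted p = 0.00288, edgeR). WT exceeded STINGgt/gt by 1.49 with DMSO and by 2.49 with CMA (adjusted p = 6.09e-06 and 4.04e-10, edgeR).

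Il4 had the lowest mean count of the 10 genes, 5 to 63 per library. It stood at 1.57, 1.38 and 1.54 CPM in WT with DMSO and at 1.31, 1.14 and 1.36 CPM in WT with CMA. STINGgt/gt libraries stood at 0.129, 0.547 and 0.529 CPM with DMSO and at 0.266, 0.475 and 0.312 CPM with CMA. All WT libraries lay above all STINGgt/gt libraries, and in WT each CMA library lay just below each DMSO library. The genotype difference was 1.92 with DMSO (adjusted p = 7.13e-05) and 1.82 with CMA (adjusted p = 4.45e-05, edgeR). The CMA effect in WT was -0.23 (95% confidence interval -0.74 to 0.27, adjusted p = 0.393, edgeR), so that Il4 and Il13, which lie side by side, shared the genotype difference but only Il13 was called with CMA. The effects of CMA on the 2 genes were not tested against each other. Kif3a, on the other side of Il4, was also called higher in WT with DMSO, by 0.54, and Rad50, on the other side of Il13, was called lower by 0.20.

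The receptor chain gene Il13ra1 was 3.40 higher in WT on the log2 scale with DMSO (10.6 against 1.01 CPM, adjusted p = 4.61e-10) and fell by 1.45 in WT with CMA (adjusted p = 2.55e-07, edgeR), to 3.92 CPM. Mast cells and basophils make type 2 cytokines as well. Their 5 markers summed to 6.52 to 7.38 CPM in WT with DMSO, 4.87 to 6.33 in WT with CMA, 5.12 to 5.85 in STINGgt/gt with DMSO and 4.75 to 5.11 in STINGgt/gt with CMA. Of the 4 tested, Mcpt8, Ms4a2 and Cpa3 were higher in WT with both treatments, and Fcer1a and Ms4a2 were at or under the floor of 3 reads in STINGgt/gt. The other, Hdc, was lower in WT with CMA (3.19 against 4.28 CPM, log2 difference -0.42, adjusted p = 0.00313, edgeR) and was not called with DMSO (-0.06, adjusted p = 0.683, edgeR). The 6 myeloid markers summed to 17.0 to 19.4 CPM in WT and to 6.69 to 8.40 CPM in STINGgt/gt with DMSO, with the 4 tested all higher in WT, and the 6 markers of CD8 and natural killer cells to 74.7 to 79.2 and 53.2 to 61.2 CPM, with 4 higher in WT and Eomes lower (18.0 against 31.3 CPM, log2 difference -0.79). With CMA the myeloid markers summed to 14.5 to 14.6 and 5.77 to 7.25 CPM, with 3 of the 4 tested higher in WT. The CD8 and natural killer markers then summed to 65.8 to 69.8 and 56.8 to 64.0 CPM, with 3 higher and 3 lower in WT. The sort of naive T cells should leave out all these other cells. Their part in the higher Il4, Il13, Il10 and Il21 levels of WT was not tested.

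Tnf, Lta and Ltb were the most abundant of the 10 transcripts in every group when compared per kilobase of exon. In WT with DMSO, Lta stood at 283, Ltb at 160 and Tnf at 24.7 CPM per kilobase, against 15.4 for Il21 and 0.222 for Il15, the lowest. In STINGgt/gt with DMSO, Lta stood at 438, Ltb at 211 and Tnf at 39.9 CPM per kilobase, followed by Csf2 at 6.22, and Il10 was lowest at 0.0909. With CMA, Il2 moved in WT from 2.97 to 18.2 CPM per kilobase, beside Il21 at 17.3.

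Tnf encodes tumour necrosis factor. It stood at 42.6, 45.2 and 33.6 CPM in WT with DMSO and at 53.8, 54.9 and 51.6 CPM with CMA. In STINGgt/gt it stood at 66.8, 63.0 and 66.5 CPM with DMSO and at 72.6, 71.0 and 74.5 CPM with CMA. No group overlapped another, and both STINGgt/gt groups lay above both WT groups. CMA raised Tnf in WT by 0.41 on the log2 scale (standard error 0.08, adjusted p = 0.000188, edgeR), whereas the value of 0.15 in STINGgt/gt was not called (adjusted p = 0.409, edgeR). The effects differed by 0.26 (adjusted p = 0.0497, edgeR), a call that rested on the threshold. It was lost in 11 of 19 alternative analyses, with library-size scaling (adjusted p = 0.0931) and on leaving out any library other than replicates 1 and 2 of WT with DMSO (adjusted p between 0.0517 and 0.104), and it was smallest without the WT DMSO library of replicate 3 (0.14, adjusted p = 0.0633, all edgeR). WT was lower than STINGgt/gt by 0.70 with DMSO and by 0.44 with CMA (adjusted p = 1.88e-06 and 5.19e-05, edgeR).

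Lta and Ltb together form the membrane lymphotoxin that organises lymphoid tissue. Lta stood at 427, 425 and 324 CPM in WT with DMSO and at 457, 464 and 413 CPM with CMA, which overlapped. STINGgt/gt levels were 616, 618 and 585 CPM with DMSO and 548, 542 and 555 CPM with CMA, with each CMA library below each DMSO library. WT was lower by 0.63 with DMSO and by 0.30 with CMA (adjusted p = 9.21e-06 and 0.00266, edgeR). The CMA effect on Lta in WT was 0.18 (adjusted p = 0.0514, edgeR), and in STINGgt/gt it was -0.14 (adjusted p = 0.474, edgeR). The WT value passed the threshold in 9 of 20 alternative analyses, but without the WT DMSO library of replicate 3 it was 0.07 (adjusted p = 0.198), and on leaving out single libraries it reached at most 0.26. The effects differed by 0.33 (adjusted p = 0.0201, edgeR), and this call was lost without the WT CMA library of replicate 2 (adjusted p = 0.0540). Without the WT DMSO library of replicate 3 the difference was 0.22 and was called (adjusted p = 0.00722).

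Ltb stood at 245, 267 and 218 CPM in WT with DMSO and rose to 276, 308 and 299 CPM with CMA. The STINGgt/gt libraries gave 309, 316 and 334 CPM with DMSO and 321, 303 and 318 CPM with CMA. WT with DMSO lay below the other 3 groups, which overlapped with their neighbours in the order of levels. CMA raised Ltb by a log2 value of 0.28 in WT (standard error 0.06, adjusted p = 0.00103), the value was -0.03 in STINGgt/gt (95% confidence interval -0.16 to 0.11), and the difference was 0.30 (adjusted p = 0.00847, edgeR). The genotype difference of -0.39 with DMSO (adjusted p = 0.000105) was -0.09 with CMA (95% confidence interval -0.23 to 0.04, adjusted p = 0.199, edgeR), and it was called in the fit of only the groups compared (-0.10, adjusted p = 0.0299).

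Csf2 stood at 4.01, 3.59 and 2.54 CPM in WT with DMSO and at 4.66, 3.42 and 3.37 CPM with CMA. In STINGgt/gt it stood at 5.80, 4.98 and 4.14 CPM with DMSO and at 5.24, 3.94 and 3.72 CPM with CMA. With DMSO the WT libraries lay below the STINGgt/gt libraries, the closest at 4.01 and 4.14 CPM. Groups next to each other in the order of levels all overlapped. The genotype difference with DMSO was -0.59 (adjusted p = 0.0167, edgeR), and it was no longer called without the WT DMSO library of replicate 3 (-0.41, adjusted p = 0.0703) or without the STINGgt/gt DMSO library of replicate 1 (adjusted p = 0.0889). The CMA effect was 0.21 in WT (95% confidence interval -0.20 to 0.63) and -0.22 in STINGgt/gt (-0.59 to 0.15), and neither was called. The difference of 0.44 (95% confidence interval -0.12 to 0.99, adjusted p = 0.164, edgeR) was called in 2 of 19 alternatives, with no filter on low counts (0.45, adjusted p = 0.0348) and with the replicate block (0.40, adjusted p = 0.0389). On leaving out single libraries the WT value ranged from 0.03 to 0.36, the STINGgt/gt value from -0.39 to -0.10 and the difference from 0.26 to 0.61. Il3, which encodes a related growth factor and lies 15636 bases from Csf2, was higher in WT with DMSO by 1.91 (adjusted p = 1.64e-05) and fell by 1.50 in WT with CMA (adjusted p = 4.55e-05, edgeR). The β chain gene Csf2rb of the GM-CSF receptor was 1.25 higher in WT with DMSO (adjusted p = 1.13e-05, edgeR).

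**Figure D3:**
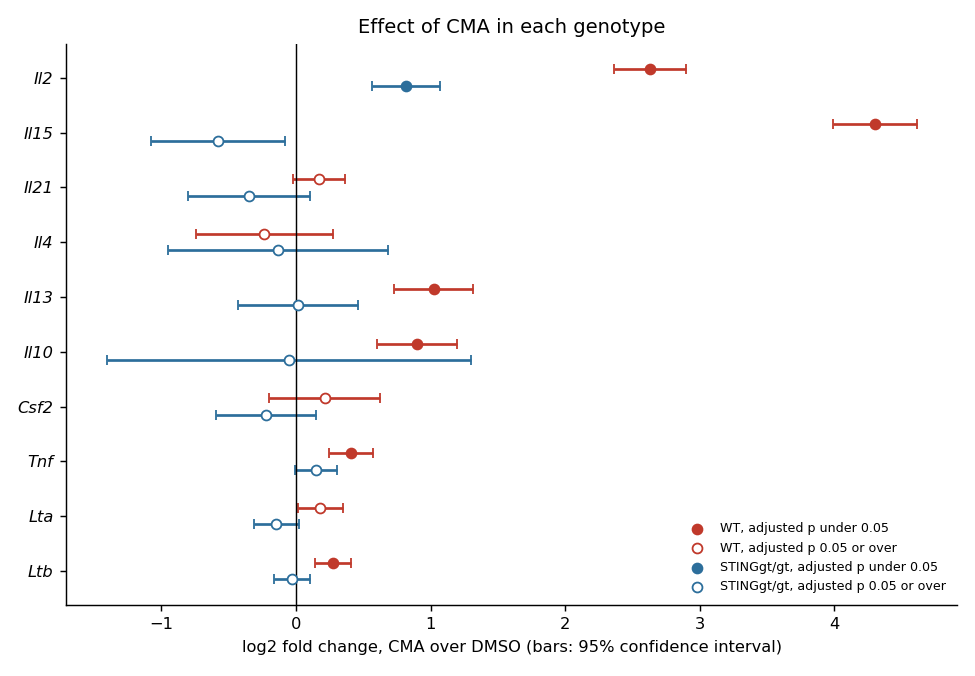
Log2 fold change with CMA over DMSO for each cytokine gene in WT (red) and STINGgt/gt (blue) T cells. Bars are 95% confidence intervals from edgeR and filled points had an adjusted p under 0.05. Il15 at 4.30 and Il2 at 2.63 lie far above the other genes in WT, and Il2 at 0.82 is the filled point in STINGgt/gt.

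Among 16 receptor chains of these cytokines, CMA raised 6 and lowered 4 in WT (33.0% and 37.4% of all genes). None was called in STINGgt/gt with edgeR, DESeq2 or limma-voom, and 1 had an unadjusted p under 0.05. With DMSO, 10 were higher and 3 lower in WT than in STINGgt/gt (22.9% and 19.8% of all genes). Among called chains with a mean count of at least 50, the largest differences were those of Il13ra1, Il10ra, Il15ra and Il2rg with CMA in WT and those of Il13ra1, Csf2rb, Il15ra and Il2ra between genotypes with DMSO, given with their ligands above. The median log2 fold change of the 16 chains in WT with CMA was 0.12, against -0.04 over all genes.

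Of 25 further T-cell cytokine genes, 23 were tested, of which CMA raised 8 and lowered 8 in WT, shares near those of all genes (33.0% and 37.4%). Ebi3, a subunit of IL-27 and IL-35, rose by 2.43 on the log2 scale (19.0 to 102 CPM), Il22 by 1.96 and Tnfsf11, which encodes RANKL, by 1.47 (adjusted p = 1.15e-13, 1.48e-07 and 4.65e-10, edgeR), while Il3 fell. In STINGgt/gt Il24 alone was called (-1.63, adjusted p = 0.0358, edgeR), at 1.47 CPM with DMSO and 0.488 CPM with CMA. With DMSO, 14 of the 23 were higher and 4 lower in WT (22.9% and 19.8% of all genes). Il24 was higher by 5.19, Csf1 by 2.57, Ifng, the type 1 cytokine interferon γ, by 2.25 and Il22 by 2.15 (adjusted p = 2.25e-12, 2.93e-12, 1.05e-11 and 5.71e-05, edgeR).

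**Figure D4:**
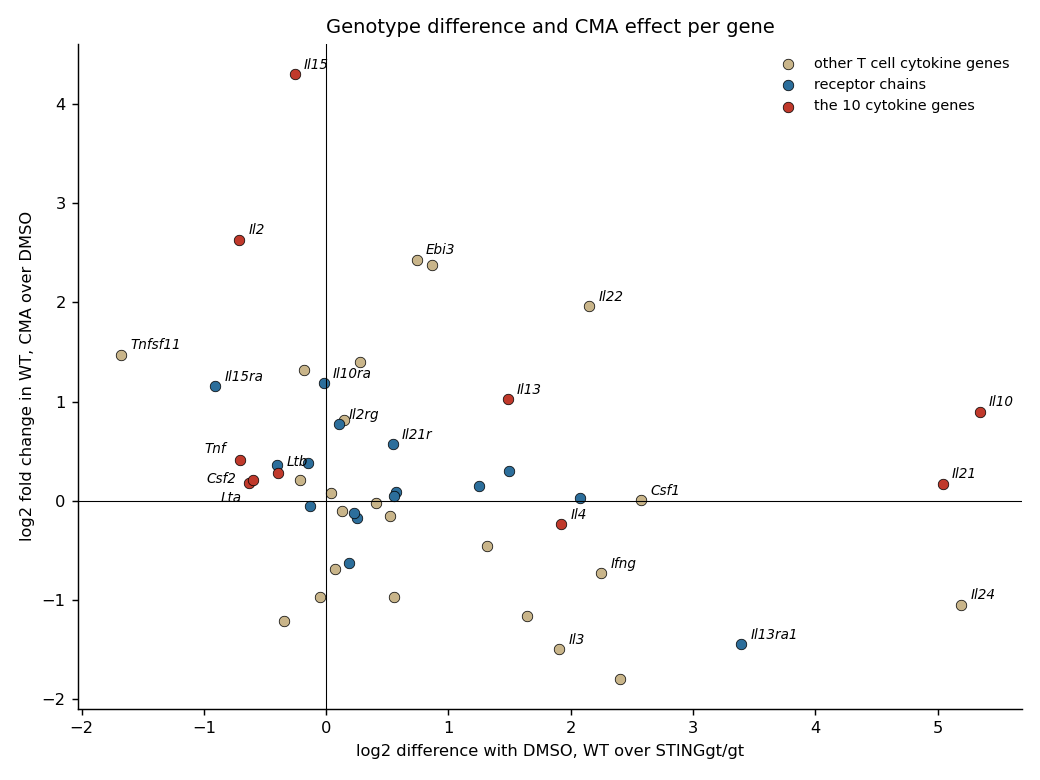
Log2 difference between WT and STINGgt/gt with DMSO (x axis) against the log2 fold change with CMA in WT (y axis) for the 10 cytokine genes (red), 16 receptor chains (blue) and 23 other cytokine genes (sand), with selected genes named. The 2 axes share the WT DMSO libraries. Il10, Il21 and Il24 lie at the far right, Il15, Il2 and Ebi3 at the top, and Il13ra1 and Il3 at the lower right.

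Transcription factors that act on cytokine genes moved in both directions. Of 25, CMA raised 12 and lowered 7 in WT (33.0% and 37.4% of all genes). Nfkb2, which encodes the NF-κB subunit p100, rose by 1.77 on the log2 scale (from a mean of 302 CPM with DMSO), and the AP-1 genes Fosb and Jun rose by 1.74 and 1.66 (adjusted p = 5.08e-14, 2.05e-09 and 8.92e-15, edgeR). Egr2, an early gene of antigen receptor signalling that is also linked to anergy, fell by 2.23 (53.9 to 11.5 CPM, adjusted p = 6.27e-14, edgeR). In STINGgt/gt, where Il2 was the cytokine gene called, 4 factors were higher and 1 lower with CMA (0.398% and 0.920% of all genes), among them Fos (0.44, adjusted p = 0.0112), Egr2 (0.40, adjusted p = 0.00271), Bcl6 (0.34, adjusted p = 0.0429) and Gata3 (-0.31, adjusted p = 0.00841, edgeR). With DMSO, 10 factors were higher and 6 lower in WT (22.9% and 19.8% of all genes). Maf, an activator of Il4, Il10 and Il21 in T cells, was higher by 3.45 (9.74 against 0.890 CPM, adjusted p = 2.45e-11, edgeR). In WT with CMA it stood at a mean of 4.03 CPM, and its part in the cytokine levels was not tested. Prdm1, which encodes Blimp-1, was higher by 2.55 with DMSO (adjusted p = 9.03e-09, edgeR). Fosl2 was higher by 1.19 and Batf by 0.91 (adjusted p = 6.07e-12 and 1.44e-08, edgeR).

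Of 10 genes for proteins that bind and destabilise or stabilise cytokine mRNAs, CMA raised 5 and lowered 3 in WT (33.0% and 37.4% of all genes). In STINGgt/gt edgeR and limma-voom called none and DESeq2 called 1 higher, and 2 were higher at an unadjusted p under 0.05 (edgeR). Rc3h2 (Roquin-2) rose by 0.76, Zc3h12a (Regnase-1) by 0.70 and Zfp36l1 by 0.68, and Hnrnpd (AUF1) fell by 0.64 (adjusted p = 3.16e-07, 1.25e-07, 3.16e-07 and 5.13e-08, edgeR). With DMSO, 2 were higher and 1 lower in WT (22.9% and 19.8% of all genes). Among them was Zfp36, which encodes tristetraprolin, a decay factor of Tnf mRNA, higher by 0.61 (adjusted p = 5.84e-08, edgeR). The part of these genes in the cytokine levels was not tested.

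The genes whose log2 CPM followed each cytokine gene most closely over the 12 libraries were sought among 11199 genes with a mean count of at least 50. The libraries fall into 4 groups, so these correlations mostly describe a shared pattern over the groups and not the size of the changes. Il21 was most like Csf1 (Pearson's r = 0.998), Ffar2 and Sbno2. Il10 was most like Chmp4b (r = 0.998), B3gnt7 and Crem. Il15 was most like Fnbp1 (r = 0.995), 9530068E07Rik and Rdh12, and Il2 like Tagap (r = 0.993), 2900026A02Rik and Rab11fip1. Il13 was most like Igkv5-43 (r = 0.992), an immunoglobulin κ segment of a multigene family whose reads may be split, Btg2 and Gmfg. Tnf was most like Sspo (r = 0.989), 9430015G10Rik and Zfp827. The closest values were lower for Ltb (Col11a2, r = 0.978, Mettl17 and Pgap2), Lta (2010016I18Rik, r = 0.964, Sfswap and Tubgcp2) and Csf2 (Tmem230, r = 0.898, Tbce and Haus1), which varied less between groups. Il4, with a mean count under 50, was left out of this search. Genes with a high r could change by very different amounts. With CMA in WT the log2 fold change was 0.58 for Fnbp1 against 4.30 for Il15, and 1.17 for Sspo against 0.41 for Tnf.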

How the data were processed

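RNA of 12 libraries was sequenced by the authors, who deposited read counts without normalization for 38924 Ensembl gene IDs and log2 values for 11921 genes. The deposited log2 values equal the log2 of the count plus 0.5, shifted by 1 factor per library. The submitters' processing notes name cutadapt 1.3, STAR 2.4.0f1, HTSeq 0.6.1, RSEM 1.2.16 and GRCm38. Tally lines that name no gene (not unique 27.8% to 30.3%, no feature 4.86% to 7.16%, ambiguous 0.594% to 0.635% of entries) were left out. No feature stood at 4.86% to 5.47% in WT with DMSO, 6.79% to 7.16% in WT with CMA and 5.98% to 6.54% in STINGgt/gt. In the same order, not unique stood at 29.6% to 30.3%, 27.8% to 27.9% and 28.1% to 29.0%. Both shares thus moved with the groups, and their part in the cytokine results was not tested.

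The counts were fitted with edgeR 4.0.16 (R 4.3.3; TMM, filterByExpr, 13811 genes, 4 groups in 1 quasi-likelihood model without a block), and p-values were Benjamini-Hochberg adjusted over all genes, with 0.05 as the threshold. With 3 libraries against 3, an exact two-sided permutation test of a single gene cannot go below p = 0.1. The models were tested on simulated data. The precision is limited by depth and by 3 libraries per group.

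The 10 genes and the lists were chosen with earlier results of these data known. From each list the text names up to 4 called genes with the largest change and a mean count of at least 50, and the 3 genes most like each member with such a mean count. Genes next to a member, and markers, were named beside its result. Alternatives were library-size scaling, DESeq2 1.42.0, limma-voom and limma 3.58.1 on the deposited log2 table, other filters and thresholds, only the groups compared, a replicate block and leaving out each library. Every pair of replicates differed beyond sampling noise (chi-square per degree of freedom 2.59 to 29.0).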

Additional observations from a re-analysis of the deposited data

Results flagged for a closer look

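For 6 of the 10 cytokine genes the CMA effect depended on the genotype by the interaction term of the edgeR model (adjusted p under 0.05), with the larger effect in WT in each (27.2% of all genes had a larger and 31.6% a smaller value in WT). On leaving out single libraries 4 to 6 genes were called. The difference on the log2 scale was 4.88 for Il15, 1.81 for Il2, 1.01 for Il13, 0.33 for Lta, 0.30 for Ltb and 0.26 for Tnf, of which the Tnf value had an adjusted p of 0.0497 and was not stable, and the Lta call was lost without the WT CMA library of replicate 2 (adjusted p = 0.0540). The other genes were chosen from the lists for their size of change, so that their differences are given as values. With the 10 cytokine genes they made 43 genes. Of these, 31 passed the threshold for the difference, 25 of them from the lists, and only those that passed are listed. Of the receptor chains, Il10ra differed by 1.26, Il15ra by 1.13, Il2rg by 0.73, Il21r by 0.49 and Il13ra1 by -1.16. Of the further cytokine genes, Il22 differed by 2.56, Ebi3 by 2.33, Tnfsf11 by 1.39, Tnfsf8 by 1.39, Ifng by -0.45 and Il3 by -1.20. Of the transcription factors, Fosb differed by 1.75, Nfkb2 by 1.71, Jun by 1.52, Fos by 1.12, Gata3 by 0.64, Maf by -1.11, Prdm1 by -1.24, Egr1 by -1.50 and Egr2 by -2.62. Of the mRNA decay genes, Rc3h2 differed by 0.78, Zc3h12a by 0.64, Zfp36l1 by 0.44, Zc3h12d by 0.42 and Hnrnpd by -0.73. Single outlying libraries were not tested for within the groups of 3.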

How the results depend on the processing

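Of 30 called differences of the 10 genes, 27 kept their direction and stayed called at an adjusted p under 0.05 in every alternative fit that tested the gene, and none reversed. The exceptions were the Tnf and Lta differences of the CMA effect and the Csf2 genotype difference with DMSO, given above. Requiring a 2-fold change, which is not one of those fits, left 3 of 6 genes higher in WT with CMA (Il15, Il2 and Il13), 0 in STINGgt/gt, 3 with a larger effect in WT, and 0 lower in WT with DMSO or with CMA. Il13 lay at this cut, as given above. Fitting only the groups compared called 2 genes higher and 1 lower in STINGgt/gt with CMA (Il2 and Tnf, adjusted p = 0.0408, and Lta, adjusted p = 0.0319, against 2.04% of all genes higher and 2.96% lower in that fit), and Ltb lower in WT with CMA, given above. Requiring at least 10 counts in every library left 2 genes higher in WT with DMSO, because Il10 and Il4 were no longer tested. Values that changed sign were never called. For Il4 in STINGgt/gt the CMA effect was 0.063 with limma-voom and 0.0045 with limma on the deposited table. On leaving out single libraries it ranged from -0.59 to 0.19, that of Il10 from -0.31 to 0.18, that of Il13 from -0.18 to 0.18 and that of Ltb from -0.053 to 0.0051. The Il4 difference ranged from -0.43 to 0.37 and the Csf2 genotype difference with CMA from -0.34 to 0.0094.

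Samples with the same replicate number did not deviate together in every pair (correlations for WT of 0.00195, 0.104 and 0.132, for STINGgt/gt of 0.0634, 0.0597 and 0.0585). The labels also do not say that a number marks a shared mouse or day, so the main fit did not read the numbers as pairs. The sample names share a first digit in 5 of the 6 same-numbered pairs, and what the digit marks is not given in the sources used here. The alternative with a replicate block fitted CMA effects within same-numbered DMSO and CMA pairs of each genotype. For the genotype differences the number itself was the block. Lta with CMA in WT (0.19, adjusted p = 0.00217) and the Csf2 difference (0.40, adjusted p = 0.0389, both edgeR) were then called and no call was lost. Depth limits Il10 and Il4 in STINGgt/gt.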
